A study of Mus musculus with 19 samples.

Results

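The 8 genes described here encode mesenchymal transcription factors of 4 small families: Twist1 and Twist2, Snai1 and Snai2, Zeb1 and Zeb2, and Prrx1 and Prrx2. They were taken by gene symbol from the expression table of the study, which holds 48795 genes. Bulk RNA sequencing was performed on 19 primary p53/MCA sarcomas, 11 from Rag2-/- mice and 8 from Rag2+/- mice. Rag2-/- mice lack the recombinase that T and B cells need to mature, and Rag2+/- littermates served as controls. All tumors were made in the same way: mice aged 6 to 10 weeks received an adenovirus carrying a p53 guide and Cas9 into the gastrocnemius muscle, then 300 µg of the carcinogen 3-methylcholanthrene (MCA). The tumors were collected untreated at a volume of 70 to 150 mm3. Every tumor therefore shared the p53 guide and the carcinogen, and each was harvested whole, so that malignant cells, host muscle and infiltrating cells contributed RNA together. Values are log2 of upper-quartile normalized FPKM (fragments scaled by transcript length and sequencing depth) to which 0.1 had been added, so a gene with no fragments lies at -3.32. Tumors are named by their sequencing number, S41 to S60.

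Twist, Snai and Zeb proteins are best known for driving epithelial-mesenchymal transition, in which epithelial cells lose their junctions and acquire a motile, fibroblast-like state. Snai and Zeb proteins are zinc finger repressors that bind the E-box variant CACCTG and recruit corepressors to the promoters of junction genes such as Cdh1 (E-cadherin). Twist proteins are basic helix-loop-helix factors that pair with E proteins, and Prrx proteins are paired-type homeodomain factors of limb and connective tissue mesenchyme. Sarcomas are tumors of mesenchymal lineage and commonly express these factors. Zeb2 is, in addition, a known identity factor of tissue macrophages.

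The libraries and their labels were examined first. The estimated depth was 24800000 to 33700000 fragments in 18 tumors and 5200000 in S41 (Rag2-/-). The T cell list separated the genotypes, with list means of -2.50 to -1.30 in the Rag2-/- tumors and 0.16 to 2.43 in the Rag2+/- tumors. Rag2 RNA itself was low in both, but its mean was higher in the Rag2-/- tumors (-0.34 ± 0.74, from -2.05 to 0.36) than in the Rag2+/- tumors (-1.31 ± 0.70, from -2.33 to -0.57; difference 0.97, exact permutation p = 0.0123). A gene-level value does not resolve which stretch was deleted, so it does not check the genotype. Fibroblast genes were high in every tumor (list mean 5.49 to 8.05). Skeletal muscle genes divided the tumors: their list mean was 12.08 to 13.30 in 5 tumors, S51 (Rag2-/-) and S52, S56, S59 and S60 (Rag2+/-), and 4.48 to 10.16 in the other 14. S46 (Rag2-/-) had the highest adipocyte (8.60), macrophage (7.87) and endothelial cell (4.59) list means of the series. In bulk tissue, fewer cells of a type and less RNA per cell cannot be told apart.

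Sequence upstream of the start sites was read to show where the E-box bound by Snai and Zeb proteins occurs in genes measured here. RefSeq start sites on GRCm38.p6 were available for 6 of the 8 members, with 9 starts in all, and for 12 of 20 epithelial genes, with 16 starts. CACCTG or its reverse complement CAGGTG was present within 250 bases upstream of 11 of the 16 epithelial starts (68.8%), compared with 17.2% of 32851 start sites of all genes. These genes were listed as epithelial genes, whether each is a target of these repressors was not tested, and some starts overlap, so the share is a description. Among the 6 members read, only Snai1, 1 of the 9 starts, held it. The general E-box CANNTG, of which CACCTG and CAGGTG are forms, was present upstream of 66.2% of all starts and of 1 of the 9 starts of the members, the same Snai1 site. The 250 bases upstream of Snai1 and of 4 epithelial genes with matches are shown 5′ to 3′ on the strand of the gene, with CACCTG and CAGGTG in capitals.
Snai1, chr2:167537945-167538194, plus strand: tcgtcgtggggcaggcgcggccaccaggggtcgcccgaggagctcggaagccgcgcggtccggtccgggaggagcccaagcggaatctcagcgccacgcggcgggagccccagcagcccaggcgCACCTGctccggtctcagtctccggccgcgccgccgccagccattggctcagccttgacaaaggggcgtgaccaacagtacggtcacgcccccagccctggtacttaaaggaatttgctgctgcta
Epcam, chr17:87635729-87635978, plus strand: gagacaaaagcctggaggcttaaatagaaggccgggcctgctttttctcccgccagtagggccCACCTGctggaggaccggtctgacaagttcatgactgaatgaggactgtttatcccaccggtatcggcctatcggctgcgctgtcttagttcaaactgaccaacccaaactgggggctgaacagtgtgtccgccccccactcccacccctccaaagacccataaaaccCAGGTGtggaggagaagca
Cldn4, chr5:134946935-134947184, minus strand: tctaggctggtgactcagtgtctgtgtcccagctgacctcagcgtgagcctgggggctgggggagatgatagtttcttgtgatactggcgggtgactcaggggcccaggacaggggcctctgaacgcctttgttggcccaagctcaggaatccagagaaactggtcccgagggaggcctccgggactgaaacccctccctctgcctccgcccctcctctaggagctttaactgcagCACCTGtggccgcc
Rab25, chr3:88548280-88548529, minus strand: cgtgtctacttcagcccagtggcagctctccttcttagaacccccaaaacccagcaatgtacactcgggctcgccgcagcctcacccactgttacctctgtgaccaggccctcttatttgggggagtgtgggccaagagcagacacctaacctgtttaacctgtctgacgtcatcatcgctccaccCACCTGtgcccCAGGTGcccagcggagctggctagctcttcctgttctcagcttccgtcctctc
Crb3, chr17:57061951-57062200, plus strand: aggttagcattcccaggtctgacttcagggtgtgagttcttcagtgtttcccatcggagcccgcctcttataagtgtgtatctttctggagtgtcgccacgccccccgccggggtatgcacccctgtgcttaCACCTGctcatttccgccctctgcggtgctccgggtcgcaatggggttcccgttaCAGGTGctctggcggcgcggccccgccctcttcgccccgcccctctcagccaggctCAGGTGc
Epcam, an epithelial adhesion molecule, holds 2 matches, Rab25, a trafficking GTPase of epithelia, holds a close pair, and Crb3, a polarity gene, holds 3 matches. Cldn4, a tight junction claudin, holds 1 match close to its start. A match is a run of letters and does not show binding.

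All 8 members were expressed in every tumor apart from Snai2, which fell just under 0 in S51 (-0.09). Averaged over the 19 tumors, Prrx1 had the highest level (5.56 ± 0.71, SD), followed by Zeb2 (4.72 ± 0.49), Zeb1 (4.48 ± 0.50), Twist1 (4.33 ± 0.90), Twist2 (4.18 ± 0.90), Prrx2 (3.92 ± 0.92), Snai1 (3.77 ± 1.24) and Snai2 (2.34 ± 0.98). Since FPKM is expressed per length, these levels can be compared between genes. Of the 7 steps in this order, only that from Snai1 to Snai2 exceeded its spread: Snai1 was higher within 19 of 19 tumors, by 1.43 ± 0.60 on the log2 scale. The other neighbours differed by less than the SD of their within-tumor difference, and their order was not the same in all tumors. Among 12826 genes with a mean above 0, the level of Prrx1 lay at the 88.9th percentile and that of Snai2 at the 30.6th. Snai1 was among the most variable, at the 90.1st percentile of the SD and with a 14.3-fold range of the normalized values plus 0.1, whereas Zeb1 (46.5th) and Zeb2 (45.6th) were near the middle. At the estimated depth the lowest member value, Snai2 in S51, rested on about 26 fragments, and the median for the other members ran from about 605 (Prrx2) to 7996 (Prrx1).

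**Figure D1:**
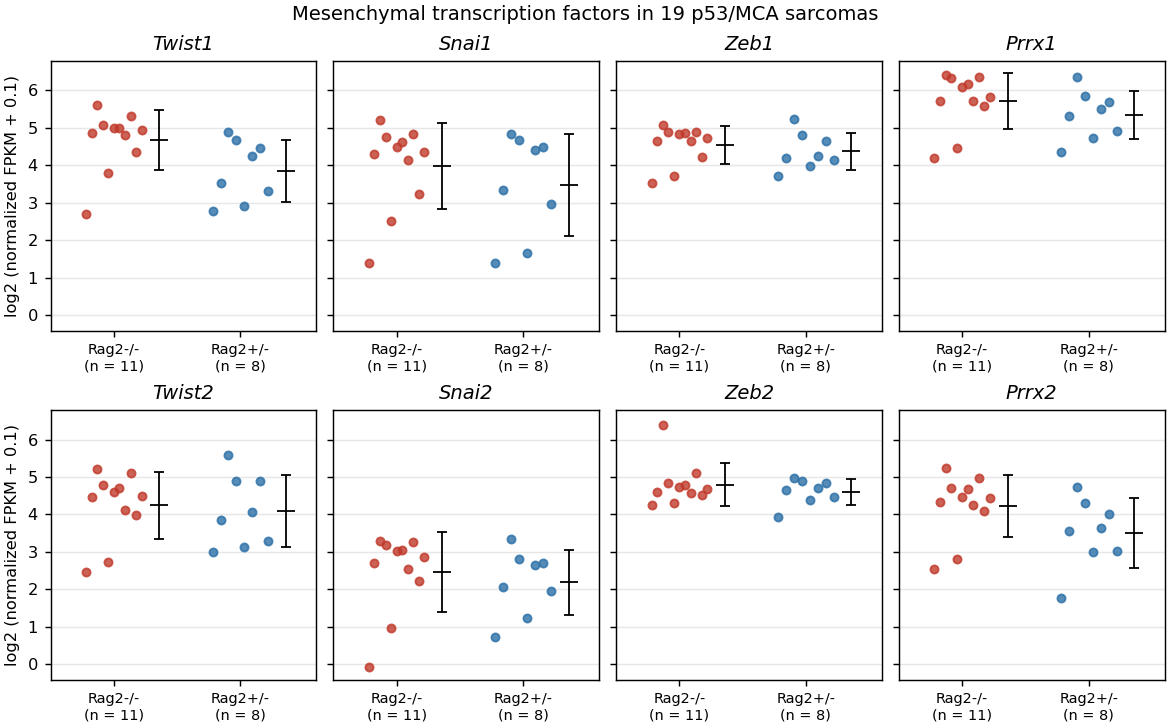
Level of each of the 8 transcription factors, as log2 of normalized FPKM plus 0.1, in 11 Rag2-/- (red) and 8 Rag2+/- (blue) tumors. Each point is 1 tumor, and the bar gives the mean and SD of the group. The groups overlap in all 8 panels, and S46 stands above the others for Zeb2 (6.38).

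The comparison between genotypes asks whether these tumors differed with the presence of adaptive immunity. None of the 8 members passed an adjusted p of 0.05 in limma fitted over 12826 genes, in which 4 genes (0.0312%) passed. All 8 means were higher in the Rag2-/- tumors, with a median difference of 0.32 compared with 0.062 over all genes tested, of which 56.2% were higher. Since 7 of the 8 varied together across tumors, these are not 8 separate observations. The groups overlapped for every member. At an unadjusted p under 0.05, 1 member (Twist1) was higher in the Rag2-/- tumors, where 6.74% of all genes were, and none was lower, where 9.56% of all genes were.

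Twist1, the basic helix-loop-helix factor required for cranial and limb mesenchyme (chr12:33957671-33959829, plus strand), ranged from 2.70 to 5.61 in the Rag2-/- tumors with a median of 4.94, and from 2.77 to 4.88 in the Rag2+/- tumors with a median of 3.89. Most Rag2-/- tumors lay near 5, and S51 was the lowest of all. The mean was 4.68 ± 0.81 (SD, n = 11) in the former and 3.85 ± 0.82 (SD, n = 8) in the latter, and these differed by 0.83 (SE 0.36; two-sided exact permutation p = 0.0443, limma adjusted p = 0.301). Its relative Twist2 (chr1:91801461-91848028, plus strand), known from dermal and bone precursors, ranged from 2.46 to 5.21 with a median of 4.49 in the Rag2-/- tumors and from 2.99 to 5.58 with a median of 3.97 in the Rag2+/- tumors. The highest Twist2 value was thus in a Rag2+/- tumor, S54, and the means differed by 0.15 (SE 0.40; exact permutation p = 0.722). Twist2 overlaps the antisense gene Gm29100, with which it shares 1477 of 3174 exonic bases. Gm29100 followed Twist2 across the tumors (r = 0.957, n = 19, a description), and since the strand setting of the counting is not stated, reads of this pair cannot be told apart.

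Snai1 (chr2:167538195-167542814, plus strand), the short-lived zinc finger repressor of Cdh1, ranged from 1.39 to 5.22 with a median of 4.37 in the Rag2-/- tumors and from 1.39 to 4.84 with a median of 3.88 in the Rag2+/- tumors. Both groups contained tumors near the lowest value, S51 among the Rag2-/- and S59 among the Rag2+/- tumors. The means differed by 0.51 (SE 0.54; exact permutation p = 0.384). Snai2 (Slug; chr16:14705852-14709385, plus strand), a repressor prominent in neural crest, ranged from -0.09 to 3.30 with a median of 2.86 and from 0.72 to 3.34 with a median of 2.35, respectively. The difference of 0.27 (SE 0.44; exact permutation p = 0.568) was smaller than the SD of either group.

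Zeb1 (chr18:5591860-5775467, plus strand), a repressor with 2 zinc finger clusters, ranged from 3.53 to 5.09 with a median of 4.72 in the Rag2-/- tumors and from 3.73 to 5.25 with a median of 4.23 in the Rag2+/- tumors. The means differed by 0.17 (SE 0.23; exact permutation p = 0.466). Zeb2 (chr2:44983632-45117395, minus strand) ranged from 4.25 to 6.38 with a median of 4.69 and from 3.92 to 4.98 with a median of 4.68. The medians of Zeb2 thus nearly coincided, while S46 lay 1.28 above the next tumor, and the means differed by 0.19 (SE 0.22; exact permutation p = 0.488). Without S41, S46, S51 and S56 the difference was -0.09. The antisense gene Zeb2os shares 653 of the 19942 exonic bases of Zeb2 and ranged from 1.53 to 2.91.

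Prrx1 (chr1:163245119-163313710, minus strand), a homeodomain factor of limb bud and fibroblast mesenchyme, ranged from 4.20 to 6.43 with a median of 5.82 in the Rag2-/- tumors and from 4.36 to 6.35 with a median of 5.40 in the Rag2+/- tumors. The means differed by 0.38 (SE 0.31; exact permutation p = 0.265). Prrx2 (chr2:30834972-30881251, plus strand), which overlaps with Prrx1 in function in the developing limb and skull, ranged from 2.54 to 5.24 with a median of 4.43 and from 1.76 to 4.74 with a median of 3.60. The means differed by 0.72 (SE 0.38; exact permutation p = 0.0920, limma adjusted p = 0.327). The adjusted p of the other 6 members was between 0.474 and 0.828.

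In the 15 tumors that remain without S41, S46, S51 and S56 (8 Rag2-/- and 7 Rag2+/-), the differences of Twist1 (1.02), Snai2 (0.79), Prrx1 (0.62) and Prrx2 (1.03) had an unadjusted limma p under 0.05, so 4 of the 8 members did, all higher in the Rag2-/- tumors. Of 12877 genes tested in these tumors 22.1% had such a p in either direction, 1416 of them higher in the Rag2-/- tumors. The lowest adjusted p of a member was 0.217. Skeletal muscle genes had lower means in the Rag2-/- tumors. Of the 12 genes of the list, 10 were lower at an unadjusted limma p under 0.05, compared with 9.56% of all genes, but none passed the adjusted threshold, nor did the list mean (difference -2.25, exact permutation p = 0.0459, adjusted p = 0.126 over 11 lists). With the muscle list mean as a covariate, the difference was 0.14 for Twist1 and 0.38 for Prrx2 and became negative for Twist2 (-0.38), Snai1 (-0.39), Snai2 (-0.29), Zeb1 (-0.12) and Prrx1 (-0.075). In the 14 tumors with less muscle RNA (10 Rag2-/- and 4 Rag2+/-), Twist1 was 4.88 ± 0.50 and 4.57 ± 0.27 (SD), a difference of 0.31, and Prrx2 was 4.40 ± 0.65 and 3.88 ± 0.35, a difference of 0.52. Zeb2 and Prrx1 both differed by 0.15 in these tumors, Snai2 by 0.019 and Zeb1 by 0.0035, and Twist2 (-0.44) and Snai1 (-0.35) had lower means in the Rag2-/- tumors. The part of muscle RNA in the genotype differences was not tested beyond these values.

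The difference between paralogs within a tumor does not depend on the scaling of the library. Twist1 exceeded Twist2 in 9 of 11 Rag2-/- tumors and in 2 of 8 Rag2+/- tumors. The within-tumor difference was 0.44 ± 0.57 (SD, n = 11) and -0.24 ± 0.50 (SD, n = 8), respectively, and ran from -1.33 in S54 to 1.63 in S43. The genotypes overlapped but differed by 0.68 (two-sided exact permutation p = 0.0112; Benjamini-Hochberg adjusted p = 0.0447 over the 4 paralog pairs). This call was narrow: it was lost in the 15 tumors (0.59, adjusted p = 0.169) and when any of 14 of the 19 tumors was left out in turn, with differences of 0.52 (without S54) to 0.71 (without S60). It held without S44, S47, S48, S50 or S58. In the 14 tumors with less muscle RNA the difference was 0.75, from 0.45 ± 0.59 (SD, 10 tumors) and -0.30 ± 0.73 (SD, 4 tumors). Since Twist2 values may include reads of Gm29100, the difference is that of the counted features.

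Snai1 was higher than Snai2 in 19 of 19 tumors, by 1.53 ± 0.45 (SD, n = 11) in the Rag2-/- tumors and 1.29 ± 0.77 (SD, n = 8) in the Rag2+/- tumors (exact permutation p = 0.395). Prrx1 was higher than Prrx2 in 19 of 19 tumors, by 1.49 ± 0.30 and 1.84 ± 0.56 (exact permutation p = 0.0999, adjusted p = 0.200). Zeb1 and Zeb2 were close in most tumors, at -0.25 ± 0.99 and -0.23 ± 0.39 (exact permutation p = 0.973), except S46, where Zeb2 exceeded Zeb1 by 2.85. The longest run of bases shared between the transcripts of a pair was 19 for Prrx1 and Prrx2, 23 for the Twist pair and for the Snai pair, and 35 for Zeb1 and Zeb2, all shorter than the 150-base reads.

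**Figure D2:**
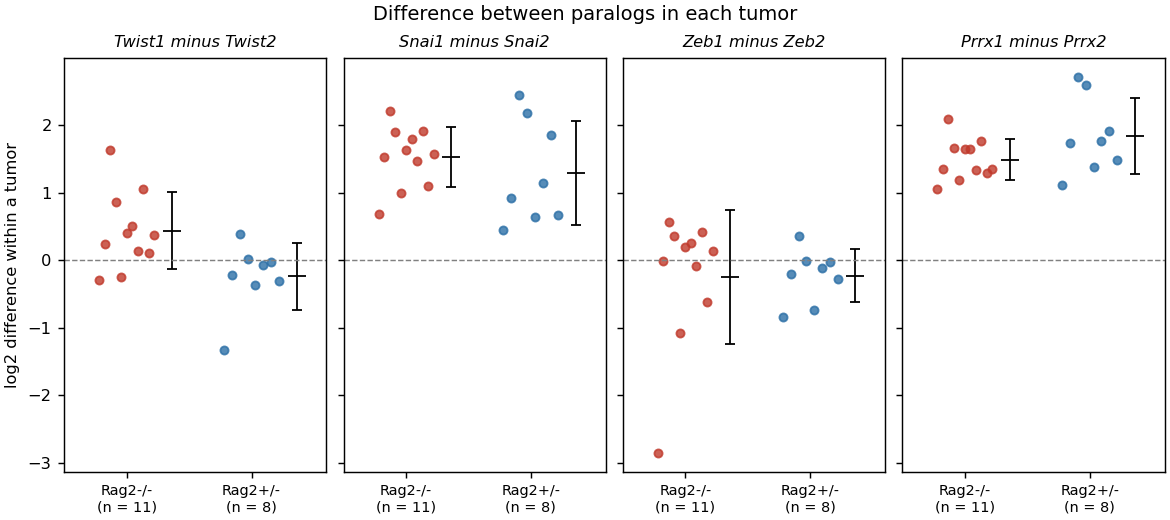
Log2 difference between the paralogs of each family within each tumor, in 11 Rag2-/- (red) and 8 Rag2+/- (blue) tumors, with the mean and SD of each group and a dashed line at 0. Snai1 and Prrx1 exceed their paralogs in every tumor, the Twist difference is above 0 in 9 of 11 Rag2-/- and 2 of 8 Rag2+/- tumors, and S46 is the low point for the Zeb pair.

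The tumors differed more among themselves than the genotypes did, and 7 of the 8 members had one of their lowest 6 values in each of S51, S56, S59, S60 and S46. In the 5 tumors with the most muscle RNA, Twist1 was 2.70 to 3.54 with a median of 2.91, and in the other 14 it was 3.78 to 5.61 with a median of 4.88, without overlap. Of all 12826 genes, 8.08% were likewise lower in these 5 tumors without overlap and 13.1% higher. Snai1 was 1.39 to 3.35 with a median of 1.67 in these 5 tumors and 2.51 to 5.22 with a median of 4.49 in the other 14. Snai2 had medians of 1.23 and 2.84, and Twist2 of 3.14 and 4.66. The difference in medians was smaller for Zeb1 (3.98 and 4.77), Prrx1 (4.73 and 5.77) and Prrx2 (3.0 and 4.32), and S52 lay among the 14 for these 3 genes. S52 was also close to the median of the 14 for Snai2 (2.71), and Twist1 was the only member without overlap between the 5 and the 14. Zeb2 had medians of 4.71 and 4.64 and was the only member that was not lower in the muscle-rich tumors. S46, whose muscle list mean was only 7.40, was low as well for Twist2 (2.73), Snai1 (2.51), Snai2 (0.97), Zeb1 (3.53, the lowest of all), Prrx1 (4.46) and Prrx2 (2.82), and had the highest adipocyte list mean.

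**Figure D3:**
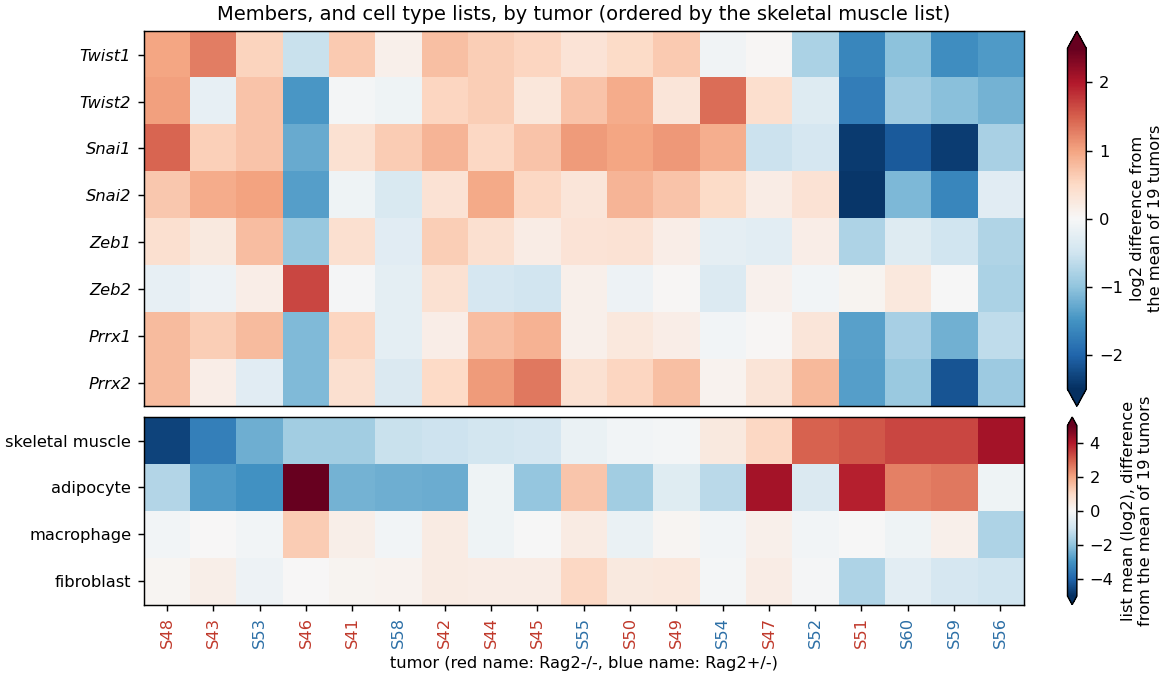
Upper panel, log2 level of each member in each tumor as the difference from its mean over the 19 tumors; lower panel, the same for the mean of 4 cell type lists. Tumors are ordered by the skeletal muscle list, with Rag2-/- names in red and Rag2+/- names in blue. S51, S59 and S60 at the muscle-rich end and S46 are blue for all members other than Zeb2, which is red in S46.

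Across the 19 tumors, all 21 pairs among the 7 members other than Zeb2 were positively correlated, with Pearson's r of 0.73 (Zeb1 and Prrx2) to 0.92 (Snai2 and Prrx1). Their adjusted permutation p over 28 pairs was 5.60e-05 to 6.13e-04, and Spearman's rho was 0.56 to 0.85 (adjusted permutation p 2.80e-04 to 0.0191). The 7 pairs with Zeb2 had r from -0.38 to -0.08 and none passed (lowest adjusted permutation p = 0.144; rho -0.37 to -0.03, lowest adjusted permutation p = 0.154). When the 2 tumors most distant from the median of a pair's first gene were removed, r among the 7 was 0.62 to 0.87. Within the Rag2-/- tumors it was 0.78 to 0.93, and within the Rag2+/- tumors 0.57 to 0.95. In the 14 tumors with less muscle RNA the range widened to between 0.31 (Twist1 and Twist2) and 0.83, with a median of 0.72. When S46 was left out of these as well, r among the 7 in the remaining 13 tumors was -0.33 to 0.66 with a median of 0.34, so the correlation was weaker among these tumors. After a linear fit on the muscle list mean was removed from each member, r among the 7 was 0.60 to 0.88 (median 0.75) over the 19 tumors and 0.37 to 0.83 (median 0.63) without S46. The pairs with Zeb2 depended on the tumors taken. Within the Rag2-/- tumors their r was -0.70 to -0.42 and 3 of the 7 passed (lowest adjusted permutation p = 0.0303), and without S46 it was -0.56 to -0.15 there. When the 2 tumors most distant for the first gene were removed, Snai2 and Zeb2 passed narrowly (r -0.52, adjusted permutation p = 0.0499). The r with Zeb2 was -0.10 to 0.62 within the Rag2+/- tumors and -0.73 to -0.51 in the 14 tumors, but -0.18 to 0.29 over the tumors without S46 and -0.36 to 0.39 in the 13.

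**Figure D4:**
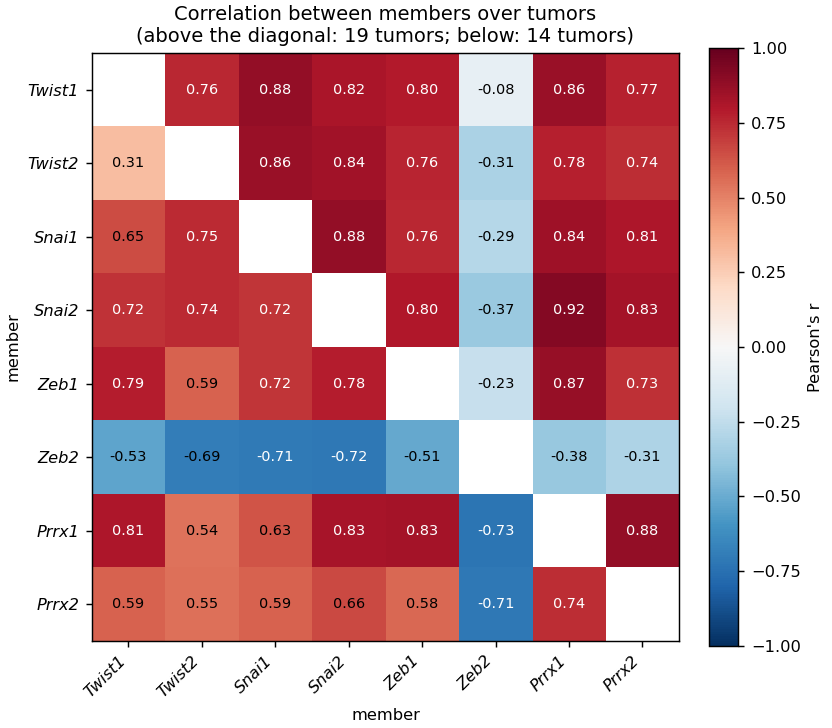
Pearson's r between the log2 levels of each pair of members, over 19 tumors above the diagonal and over the 14 tumors with less muscle RNA below it. All pairs without Zeb2 are positive in both triangles and all pairs with Zeb2 are negative, where both sets of tumors include S46; without S46 the r with Zeb2 runs from -0.18 to 0.29.

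This shared pattern was not particular to the family. For Twist1, 23.4% of the 12826 genes had r above 0.7, for Prrx2 9.57%, and for Zeb2 3.02%. Ranked by r among 12825 other genes, the nearest member to Prrx2 was Prrx1 at rank 17, and the nearest to Zeb1 (rank 28) and to Snai2 (rank 29) was also Prrx1. The nearest member to Snai1 was Twist1 at rank 521, and the nearest to Twist1 was Snai1 at rank 846. The 3 genes with the highest r over the 19 tumors were named for each member as a description. They were Mbtps1 (a protease of the Golgi), Trio and the receptor kinase Axl for Twist1 (r 0.973, 0.968 and 0.965), and, after Gm29100, the Wnt co-receptors Ptk7 and Ror2 for Twist2 (r 0.943 and 0.932). For Snai1 they were Dcakd, Fgd1 and Gxylt2 (r 0.977, 0.968 and 0.963), and for Snai2 the growth arrest gene Gas1, Lrrn3 and the imprinted gene Peg10 (r 0.947, 0.946 and 0.940). For Zeb1 they were the semaphorin Sema3a, Brinp1 and Ift74 (r 0.926, 0.903 and 0.900), and for Prrx1 Lrrn3, Sh3rf3 and Arhgef25 (r 0.968, 0.957 and 0.951). Prrx2 was nearest to the chemokine Cx3cl1, Tspan11 and the mesenchymal cadherin Cdh11 (r 0.951, 0.944 and 0.917), and Zeb2 to Gm10252, Nsf and Rassf4 (r 0.932, 0.925 and 0.925).

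Zeb2 followed the macrophage list. Over the 19 tumors r was 0.815 (adjusted permutation p = 0.00506 over 88 relations between members and cell type lists) and Spearman's rho 0.579 (adjusted permutation p = 0.0434). The relation was r = 0.931 in the Rag2-/- and r = 0.785 in the Rag2+/- tumors, and 0.720 without S46. Without S46 and S56, the tumors with the highest and lowest macrophage list means, r was 0.484 and the relation did not pass (adjusted permutation p = 0.129), nor did it in the 15 tumors (r 0.507, adjusted permutation p = 0.125), so it rested in part on these tumors. S56 had both the lowest macrophage list mean (5.05) and the lowest Zeb2 (3.92). With the macrophage list mean as a covariate, the genotype difference of Zeb2 was -0.095. No other member passed with the macrophage list, at r of -0.20 to 0.20. Their r with it was -0.79 to -0.50 in the 14 tumors with less muscle RNA, which include S46. Among these 14 without S46 it was -0.43 to 0.077, and over all tumors other than S46 it was 0.0043 to 0.40. The share of Zeb2 RNA that came from macrophages was not tested.

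**Figure D5:**
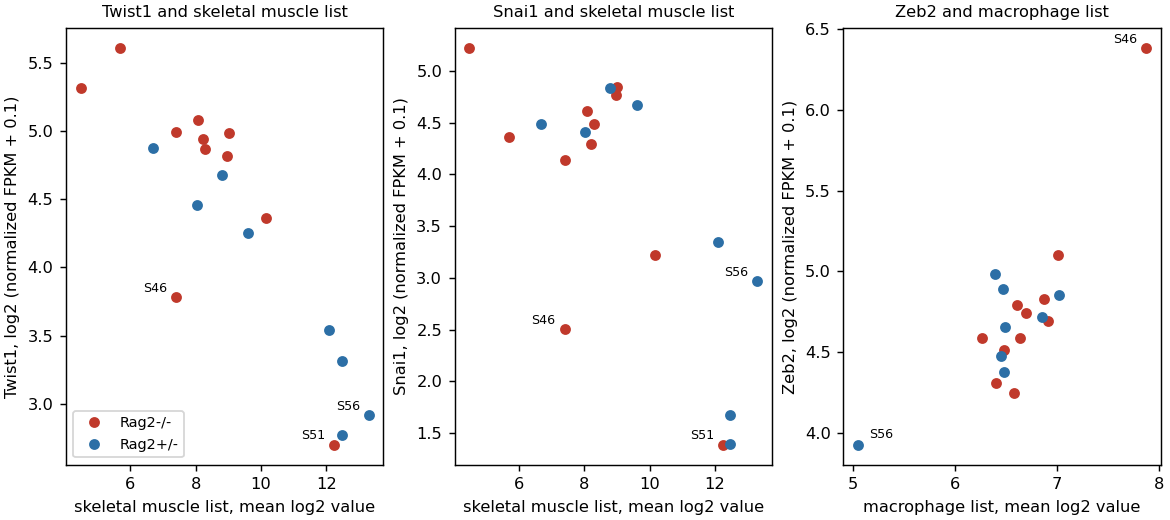
Log2 level of Twist1 and Snai1 against the mean of the skeletal muscle list, and of Zeb2 against the mean of the macrophage list, for 19 tumors (red, Rag2-/-; blue, Rag2+/-). The 5 tumors at muscle list means above 12 hold the 5 lowest Twist1 values, and S46 and S56 are the ends of the Zeb2 and macrophage relation.

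Relations with the other cell type lists were mixed. Because 5 tumors lie apart on the skeletal muscle list, its correlation is given for the other 14 only: r was -0.55 for Twist1 and -0.35 to 0.18 for the other 6 members of the correlated set. In the 13 without S46 it was -0.78 for Twist1, -0.63 for Prrx1 and -0.49 for Zeb1, and -0.41 to 0.16 for the other 4. The adipocyte list was negatively related to all 7 (r -0.74 to -0.55, adjusted permutation p 0.00352 to 0.0342; rho -0.69 to -0.37, of which 4 of 7 passed), with r of -0.79 to -0.61 without S46 and S47 and of -0.78 to -0.40 in the 14 tumors. In the 13 tumors without S46 it was -0.50 to 0.17. Zeb2 was positively related to this list (r 0.592, adjusted permutation p = 0.0267), but its rho was 0.261 (adjusted permutation p = 0.401) and its r without S46 was 0.240. The fibroblast list was positively related to all 7 over 19 tumors (r 0.62 to 0.80, adjusted permutation p 0.00110 to 0.0158; rho 0.43 to 0.67, of which 3 of 7 passed). In the 14 tumors r was only 0.02 to 0.45. In the 13 without S46 it was -0.23 to 0.40 and negative for 4 of the 7. The Schwann cell list, a sign of nerve, was negatively related to all 7 (r -0.80 to -0.53; rho -0.83 to -0.42, of which 5 of 7 passed). It was highest in the muscle-rich tumors S60 and S56, and r was -0.76 to -0.19 in the 14 tumors and -0.67 to 0.21 in the 13 without S46. The pericyte and smooth muscle list was negatively related to all 7 and passed for the 6 other than Snai2 (r -0.69 to -0.41; rho -0.73 to -0.41, of which 2 passed). Its r was -0.62 to -0.42 in the 14 tumors and -0.43 to -0.012 in the 13. The myogenic precursor list passed for Twist1 (r -0.81), Snai1 (r -0.61) and Prrx1 (r -0.54), of which only Twist1 passed by Spearman's rho, and its r with the 7 was -0.24 to 0.47 in the 14 tumors and -0.77 (Twist1) to 0.20 in the 13. Zeb1 was the only member that passed with the endothelial list (r -0.66, adjusted permutation p = 0.00806; rho -0.59, adjusted permutation p = 0.0429). Its r was -0.37 without S46 and S56. In the 14 tumors r with the endothelial list was -0.84 to -0.54 for all 7. In the 13 tumors it was -0.70 (Twist1) to 0.070, with -0.65 for Prrx1 and -0.63 for Zeb1. In all, 39 of the 88 relations passed the adjusted threshold over 19 tumors (6 of them with the skeletal muscle list), 20 without the 2 tumors farthest on each list, 2 within the Rag2-/- and 0 within the Rag2+/- tumors. Low r with the muscle list was common: over 19 tumors, 1.33% of the 12826 genes had a lower r than Twist1. For Snai1, Prrx1, Zeb1, Snai2 and Twist2 this share ran from 16.7% (Snai1) to 30.9% (Twist2).

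The defining markers of these lists showed which cells the tumors held. Pdgfra and Pdgfrb, receptors of fibroblasts, ranged from 3.41 to 7.03 and from 1.98 to 5.02, and Col1a1 from 7.37 to 10.49, all lowest in S51. Csf1r, Adgre1 and Cd68 of macrophages ranged from 4.52 to 7.91, 3.96 to 7.59 and 6.00 to 8.78, all highest in S46. Acta1, Ckm and Mylpf of muscle fibers ranged from 6.38 to 15.36, 5.54 to 14.53 and 4.80 to 14.08, lowest in S48 and highest in S56. Adipoq, Plin1 and Plin4 of adipocytes reached 8.68, 8.47 and 7.57 in S46. Pecam1, Cdh5 and Kdr of endothelium were present in all tumors (lowest 4.25, 4.13 and 2.31), as were Rgs5, Notch3 and Cspg4 of pericytes (lowest 3.26, 1.13 and 0.13). Pax7, Pax3 and Myf5 of muscle precursors stayed under 0 in every tumor. The keratinocyte genes Krt5, Krt14 and Krt15 reached 1.49, 1.12 and -0.57, all in S47, and the Schwann cell gene Sox10 reached 1.84. Cd3d, Cd3e and Cd3g of T cells had means of -3.06, -3.32 and -2.65 in the Rag2-/- and 1.40, 1.47 and 1.94 in the Rag2+/- tumors, and Ncr1, Klrb1c and Klre1 of NK cells reached 1.51, 1.88 and 1.25. Other NK list genes were higher, up to 4.35 for Klrk1 and 3.77 for Nkg7. The NK list mean was 1.22 ± 0.57 in the Rag2-/- and 0.22 ± 1.08 in the Rag2+/- tumors (SD; exact permutation p = 0.0142, adjusted p = 0.0782 over 11 lists). Of its 7 genes tested, 4 (Ncr1, Klrb1c, Prf1 and Xcl1) were higher in the Rag2-/- tumors at an unadjusted limma p under 0.05 and none was lower. Of all genes, 6.74% were higher and 9.56% lower at this p.

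Genes that act with these factors were also compared between genotypes, and none of the 63 tested genes of 7 such lists passed the adjusted threshold in limma (3 were higher and 1 lower in the Rag2-/- tumors at an unadjusted p under 0.05, compared with 6.74% and 9.56% of all genes). Of the 7 partners and inhibitors of Twist, Id3, an inhibitor of helix-loop-helix factors, was 6.05 ± 0.54 and 5.35 ± 0.78 (difference 0.70, unadjusted limma p = 0.025, adjusted p = 0.301). The E proteins Tcf4 and Tcf12 differed by 0.48 and 0.40. All 10 corepressors of Snai and Zeb had a mean above 0, and Limd1 was 3.84 ± 0.39 and 4.35 ± 0.58 (difference -0.51, adjusted p = 0.301). Hdac1 differed by 0.39 and Wtip by 0.55. The 8 genes that act in turnover of Snai and Twist proteins differed by little, with -0.17 for Csnk1a1, -0.21 for Btrc, which encodes a ubiquitin ligase subunit, and -0.082 for Psmd14.

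Of 13 related family members, 4 had a mean above 0. Shox2, a homeodomain gene of the limb, was 3.43 ± 0.61 and 2.65 ± 1.03 (difference 0.78, adjusted p = 0.305), and the tendon factor Scx and the somite factor Tcf15 differed by -0.94 and -1.56. Among 20 transcription factors of limb and connective tissue, Tbx18 was 2.17 ± 0.62 and 1.40 ± 0.90 (difference 0.78, adjusted p = 0.301), and Osr1 and Foxp1 differed by 0.40 and 0.48. All 16 mesenchymal cytoskeleton and adhesion genes were tested and 15 had a mean above 4. Vim, the intermediate filament of mesenchymal cells, was 10.10 ± 0.34 and 9.97 ± 0.84. Cdh11, Sparc and Lox differed by 1.03, 0.42 and 0.37, with a lowest adjusted p of 0.346.

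Epithelial genes were low in most tumors, and only 3 of 20 had a mean above 0. S47 (Rag2-/-) stood apart, with the highest values of Krt8 (4.10), Krt19 (3.79), Epcam (2.24), Cldn3 (1.17) and Cldn4 (1.07), and it was also the highest tumor for the keratinocyte genes Krt5 and Krt14. Cdh1, the best known target of Snai and Zeb repressors, was -0.65 ± 0.77 in the Rag2-/- and -0.36 ± 0.64 in the Rag2+/- tumors (exact permutation p = 0.395) and ranged from -2.03 to 0.71. Of the genes whose upstream sequences are shown above, Epcam had a mean of -1.67, Cldn4 of -2.57, Rab25 of -2.91 and Crb3 of -3.22. The 3 genes with a mean above 0 were simple epithelial keratins and Pkp3: Krt18 was 1.86 ± 1.68 and 3.26 ± 1.36 (difference -1.41, adjusted p = 0.306), Krt8 was 0.01 ± 1.91 and 1.62 ± 2.13 (difference -1.61, adjusted p = 0.336), and the desmosomal gene Pkp3 differed by -0.55. Krt8 and Krt18 also hold CACCTG upstream of their starts.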

How the data were processed

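Bulk RNA sequencing of 19 tumors (11 Rag2-/-, 8 Rag2+/-) was analysed. The authors deposited log2 values of upper-quartile normalized FPKM with 0.1 added. Which pipeline made them is not settled: the study describes the Omicsoft aligner on mouse B38 with Ensembl R86 genes for one analysis and STAR with HTSeq on mm10 for another, and the submitters' processing notes list Trimmomatic 0.36, STAR and HTSeq on mm10. The labels name the NEBNext Ultra II kit, and the strand setting is not given in the sources used here. Counts were not used here, and depth was estimated from the steps between low values of genes with 1 transcript (80.8 to 89.5% of steps whole within 0.05), which is approximate. Symbols matched 48349 of 48795 identifiers.

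Genotypes were compared with limma 3.58.1 (R 4.3.3, intensity trend) over 12826 genes with a mean above 0 and Benjamini-Hochberg adjustment, and with two-sided exact permutation tests for single genes and paralog differences. Correlations used 100000 permutations. The functions were tested on simulated data. Each tumor carries an animal number of its own in its label. The members and lists were chosen with earlier results of these data known. The text names the members, the 3 genes most correlated with each, the genes of each list past the threshold or with the 3 lowest p, the first 3 genes of cell type lists (some are not reported here), Rag2, Xist and Cdh1. Exceptions named after their values were seen are Vim, Snai3, Klrk1, Nkg7, Prf1, Xcl1, the antisense gene Zeb2os, the epithelial and keratinocyte genes named for S47 and the epithelial genes shown with sequence. Cell type lists were averaged over 10 to 12 genes. Alternatives were other pseudocounts, filters, normalizations, covariates, a 15-tumor subset as displayed by the study, and each tumor left out. The splits by muscle RNA and by Xist, the removal of the fit on muscle RNA from the members, and the values without S46, were chosen after seeing the data. Gene positions are from GENCODE vM21 (GRCm38).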

Additional observations from a re-analysis of the deposited data

Results flagged for a closer look

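The difference between Twist1 and Twist2 in S54 stood apart from the other 7 Rag2+/- tumors. It was -1.33, the next lowest tumor was at -0.37, and the gap was 0.559 of the range of the group. S54 had the highest Twist2 of all tumors (5.58) together with an intermediate Twist1 (4.25). Chance alone marks about 1 in 20 groups in this way, and the 8 members and 4 paralog differences were examined in the Rag2+/- tumors only, since the 11 Rag2-/- tumors are too many for the criterion. Without S54 the genotype difference in Twist1 minus Twist2 was 0.52 (exact permutation p = 0.0334, adjusted p = 0.134).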

How the results depend on the processing

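No member passed the adjusted threshold under any of 31 alternatives, whose lowest adjusted p was 0.0941 (Twist1). Twist1 and Prrx2 kept a positive difference in all of them. The skeletal muscle covariate turned Twist2 (-0.38), Snai1 (-0.39), Snai2 (-0.29), Zeb1 (-0.12) and Prrx1 (-0.075) negative, the Xist covariate Twist2 (-0.17) and Snai2 (-0.056), and the macrophage covariate (-0.095) and the 15 tumors (-0.092) Zeb2. With each tumor left out, the Twist2 difference was -0.0050 (without S56) to 0.36. The Twist1 minus Twist2 difference was 0.59 in the 15 tumors and 0.52 to 0.76 with each tumor left out. That of Zeb1 minus Zeb2 was 0.36 and -0.10 to 0.24. The number of genes called between genotypes was 4, and 15 in the 15 tumors, 10 and 1 at pseudocounts of 1 and 0.01, 26 without a filter, 0 at a mean above 2 (1676 at an unadjusted limma p under 0.05), 2 and 7 with the muscle and macrophage covariates, and 3 to 7 with each tumor left out. Of 28 member pairs, 21 passed over 19 tumors, 4 within the 8 Rag2+/- tumors, 24 within the 11 Rag2-/- tumors (3 of them with Zeb2), 22 without the 2 farthest tumors (1 with Zeb2) and 20 in the 15 tumors. Of 88 relations with cell type lists, 39 passed, 2 and 0 within the genotypes and 20 without the 2 farthest tumors. The causes were not tested. No paired analysis was made because the labels do not name litters, so littermates could not be matched between the genotypes. Precision is limited for Snai2 in muscle-rich tumors and for S41, the shallowest library.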

Other observations

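Snai3, the third mouse Snai gene, behaved unlike Snai1 and Snai2. It ranged from -3.32 to 0.10 with a median of -2.14 in the Rag2-/- tumors and from -2.21 to 3.14 with a median of -0.56 in the Rag2+/- tumors, highest in S56. Snai3 was 0.10 to 3.14 in the 5 muscle-rich tumors, of which 4 were Rag2+/-, and -3.32 to -1.04 in the other 14, without overlap (13.1% of 12826 genes were higher in the 5 without overlap). Among the 14, the 4 Rag2+/- tumors (-2.21 to -1.72) lay within the range of the 10 Rag2-/- tumors (-3.32 to -1.04), and the means differed by -0.12. The muscle-rich Rag2-/- tumor S51 was at 0.10, above all 14. Over all 19 tumors the genotypes overlapped, the means differed by -1.84 (unadjusted exact permutation p = 0.0230), and in the 15 tumors by -1.35 (exact permutation p = 0.0925). Its mean was under the filter of the fit over all genes, and it was named after its values were seen.

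Xist, the RNA of the inactive X chromosome in females, was above 0 in 10 tumors (7 Rag2-/- and 3 Rag2+/-) and below 0 in 9 (4 Rag2-/- and 5 Rag2+/-). The tumors with Xist below 0 included the muscle-rich tumors and S46. The median of Twist1 was 4.91 in the tumors with Xist above 0 and 3.54 in those with Xist below 0, that of Snai1 was 4.49 and 2.97, and that of Prrx1 was 6.13 and 4.93. Zeb2 had medians of 4.64 and 4.71. These values were not tested, and sex, muscle RNA and genotype were not separated in them.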
